A study of Homo sapiens with 6 samples.

Results

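The proteasome genes described here are all rows of the authors' deposited table whose symbol begins with PSM, a letter from A to G and a number. The rule found 54 of 26364 genes. Of these, 48 are named proteasome subunits, activators, inhibitor or assembly factors, namely 8 alpha subunits and 7 standard beta subunits of the 20S core, 3 immunoproteasome beta subunits, the thymus beta subunit PSMB11, 6 ATPases (PSMC) and 14 non-ATPase genes (PSMD) of the 19S particle, 4 activator genes (PSME), the inhibitor gene PSMF1 and 4 assembly chaperone genes (PSMG). The rule also matched 5 antisense RNAs and PSMC3IP, a meiotic recombination factor that is no proteasome part. The study used REH, a human cell line from acute lymphoblastic leukaemia of B-cell precursors. Lentivirus gave 3 cultures a scramble short hairpin RNA and 3 cultures a hairpin against STAT3, a transcription factor of cytokine signalling, in separate experiments. In all 6 cultures, 3 days of puromycin selection and removal of dead cells came before extraction of total RNA. REH is a single line, and the sources used here give neither the sequence nor the number of the hairpins.

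The proteasome degrades proteins that carry ubiquitin chains. Its 20S core is a barrel of alpha rings that gate the entry and beta rings that hold the proteolytic sites, and its 19S cap binds the chains, unfolds the substrate and threads it into the barrel. In immune cells the standard catalytic subunits PSMB6, PSMB7 and PSMB5 can be replaced by PSMB9, PSMB10 and PSMB8, which alters the peptides offered to HLA class I. When the proteasome is impaired, the transcription factor NFE2L1 (NRF1) raises subunit transcription through antioxidant response elements. Inhibitors that bind PSMB5 are used to treat some B-lineage cancers.

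Promoters of 2 standard beta genes that rose and 2 assembly chaperone genes that fell are shown, because the members of each pair were called in the same direction. Each run covers the 250 bases before a RefSeq start site, 5′ to 3′ on the gene's strand, on GRCh38.p14. The RefSeq start lies downstream of the principal GENCODE 29 start by 400 bases for PSMG1, 616 for PSMG2 and 39 for PSMB4, so the windows of PSMG1 and PSMG2 lie wholly inside the GENCODE gene models. Capitals mark matches on either strand to TGANNNNGC (the antioxidant response element core), CCAAT (the CCAAT box), CGGAAG (an ETS factor core) or TTCNNNGAA (a STAT site), and matches may overlap or touch.
PSMB4, chr1:151399323-151399572, plus strand: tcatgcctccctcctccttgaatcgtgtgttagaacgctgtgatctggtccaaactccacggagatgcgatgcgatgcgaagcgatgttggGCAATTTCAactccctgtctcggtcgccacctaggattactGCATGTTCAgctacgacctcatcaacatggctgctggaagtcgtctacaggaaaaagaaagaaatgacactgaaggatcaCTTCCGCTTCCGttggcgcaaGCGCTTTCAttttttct
PSMB5, chr14:23035221-23035470, minus strand: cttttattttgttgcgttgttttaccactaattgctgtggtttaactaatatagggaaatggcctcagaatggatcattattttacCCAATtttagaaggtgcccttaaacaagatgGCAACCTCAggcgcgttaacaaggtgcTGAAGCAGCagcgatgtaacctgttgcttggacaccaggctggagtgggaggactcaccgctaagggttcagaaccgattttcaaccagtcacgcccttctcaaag
PSMG1, chr21:39183452-39183701, minus strand: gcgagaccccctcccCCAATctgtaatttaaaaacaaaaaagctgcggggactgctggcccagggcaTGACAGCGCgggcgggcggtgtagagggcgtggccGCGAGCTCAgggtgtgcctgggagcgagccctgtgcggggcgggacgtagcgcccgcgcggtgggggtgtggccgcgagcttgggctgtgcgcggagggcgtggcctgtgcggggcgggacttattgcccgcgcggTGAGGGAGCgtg
PSMG2, chr18:12702792-12703041, plus strand: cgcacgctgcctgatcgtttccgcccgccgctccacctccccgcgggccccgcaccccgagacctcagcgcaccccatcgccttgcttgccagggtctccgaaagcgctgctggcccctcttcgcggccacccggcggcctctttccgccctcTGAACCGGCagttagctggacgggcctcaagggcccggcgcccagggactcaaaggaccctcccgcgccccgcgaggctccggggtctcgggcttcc
All 4 windows held TGANNNNGC, which 35.3% of 27305 RefSeq gene windows of this length also hold. As the 4 were picked with results known, they do not stand for the called genes. The windows of PSMD11, PSME3 and PSMF1, called higher, and of PSMD1 and PSMD10, called lower, held no such match. A window was at hand for 42 of the 48 proteasome genes. PSMA7, PSMB1, PSMB6, PSMB7, PSMD4 and PSMG3 had none. For 28 of the 42, both starts were within 100 bases, and for 9 the window lay wholly downstream of the GENCODE start. TGANNNNGC stood in 23 of the 42, among them 4 of 7 genes called higher, 2 of 4 called lower and 15 of 29 not called; the other 2 were the untested PSMA8 and PSMB11. CGGAAG also stood in 23, against 16.9% of all windows and 29.8% of windows of tested genes. CCAAT stood in 18, against 33.0% of all windows and 35.6% of windows of tested genes. TTCNNNGAA stood in 6 (PSMA2, PSMA8, PSMB8, PSMC4, PSMD3 and PSME3), against 6.69% of all windows and 5.46% of windows of tested genes. It was found in 1 of 7 genes called higher, 0 of 4 called lower, 4 of 29 not called and the untested PSMA8. These are matches of letters, and no factor binding was measured.

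The table gives 1 mean per gene over all 6 libraries, as a read count divided by a size factor, with a log2 fold change, a p and an adjusted p, and no value per library. A gene is called here at an adjusted p under 0.05 in it, and 12061 genes with an adjusted p are termed tested. The mean total was 11485068 normalized counts per library. The level in each group was worked out from the mean and the fold change, and 95% intervals from the fold change and its p. As the fold changes are shrunken toward 0, both are approximate. The table names no numerator, and negative values were read as lower in shSTAT3 because STAT3 stood at −1.75 in the authors' deposited table, 29.8% of scramble. Of 10 B-cell precursor markers 9 were tested, 2 higher (CD79A at 0.63 and PAX5 at 0.32) and 5 lower, with RAG1 at a mean of 20516 and PAX5 at 10140 in the authors' deposited table, and VPREB1 is listed at 0. Their summed level was 75103 in scramble and 71865 in shSTAT3. The 5 T-cell markers found had means of at most 0.516 in the authors' deposited table. Of 8 myeloid markers 5 were tested, 1 higher and 2 lower, with a summed level of 3204 in scramble and 2809 in shSTAT3, most of it from MPO at a mean of 2330 in the authors' deposited table. Of 6 fibroblast markers 2 were tested and both fell, with a summed level of 946 and 768, while COL1A2, DCN and LUM are listed at 0. Among all tested genes, 21.3% were called higher and 23.2% lower. The part of the cell type markers in the results below was not tested.

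In the shSTAT3 cultures most proteasome transcripts stayed near their scramble level, with a single large exception. PSMA7, an alpha subunit of the 20S core, fell to 39.8% of scramble. The standard catalytic beta genes PSMB5, PSMB6 and PSMB7 and the 19S lid gene PSMD11 rose to between 122% and 138% of scramble, and the core chaperone genes PSMG1 and PSMG2 and the 19S chaperone gene PSMD10 fell to between 70.6% and 77.3%. None of the immunoproteasome beta genes or 19S ATPases was called, where 44.5% of all tested genes were. In bulk RNA, less transcript in each cell and fewer cells with the transcript cannot be told apart. Nor can effects of lower STAT3 and effects of the hairpin on other genes be told apart in this design.

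Of 54 members, 52 were tested, 10 were called higher and 7 lower in the authors' deposited table. That is 32.7% of the tested members, where 44.5% of all tested genes were called, 21.3% higher and 23.2% lower. Of the 5344 tested genes with a mean of at least 500, 1472 were called higher and 1458 lower. Among the 48 subunit and assembly genes, 46 were tested, 9 higher and 6 lower, a share of 32.6%. Most of them are abundant, and among the 43 with a mean of at least 500 the share was 32.6% (14 genes), against 54.8% of all tested genes past the same mean. Their fold changes were small: 37 of 46 (80.4%) lay within 0.25 of 0 on a log2 basis, against 46.8% of all tested genes and 52.4% of those with a mean of at least 500. The median was 0.05 for the 46 genes and 0.00 for all tested genes. Only PSMA7 and the antisense RNA PSMD6-AS2 of the 52 tested members reached a 2-fold change, which 4.48% of all tested genes did. No test of the members as a set was made.

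**Figure D1:**
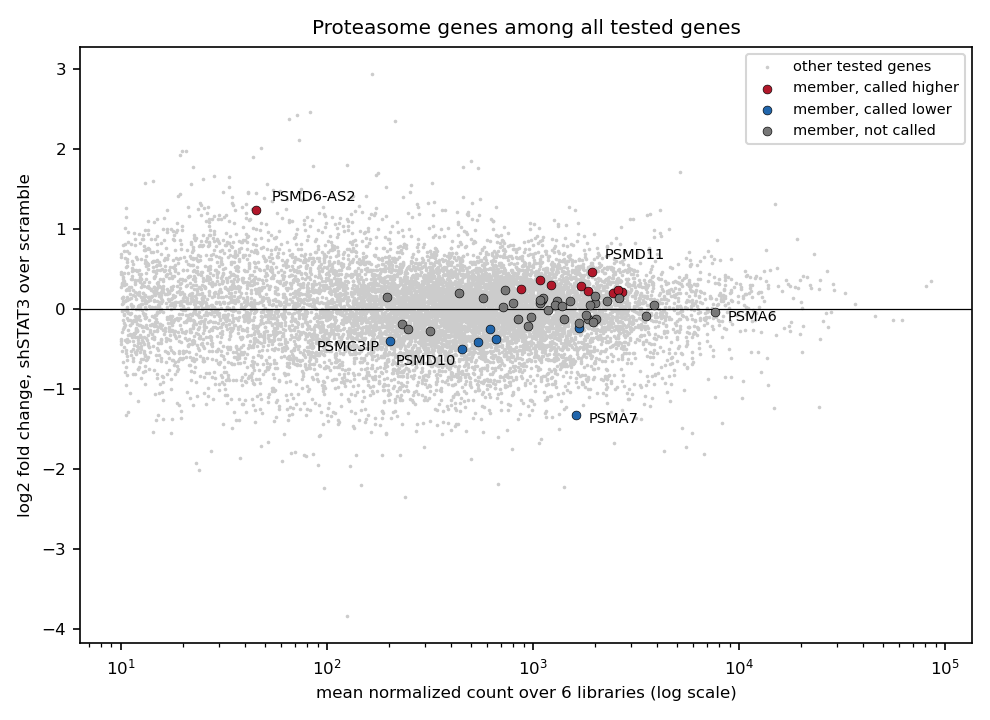
Fold change (vertical axis, log2, shSTAT3 over scramble) against mean normalized count over the 6 libraries (horizontal log axis) for 12061 tested genes in grey and the 52 tested members in colour by call. Most members lie close to 0 at means above 500, PSMA7 lies alone at −1.33, and PSMD6-AS2 stands at 1.24 with a mean of only 45.0.

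The alpha subunits form the outer rings of the core and its gate. PSMA7 averaged 1610.0 normalized counts, with −1.33 as its log2 fold change (95% interval −1.50 to −1.16, adjusted p = 8.56e-50) in the authors' deposited table. This corresponds to 2303 normalized counts in scramble and 917 in shSTAT3. It ranked 31 by p and 99 among the lowest fold changes of the 12061 tested genes. The interval of PSMA7 did not meet that of any other tested subunit gene, of which PSMD10 reached lowest, to −0.73. The other 6 tested alpha genes were not called, where 44.5% of all tested genes were. PSMA3, PSMA1, PSMA5, PSMA4 and PSMA6 had negative fold changes between −0.21 and −0.03 in the authors' deposited table, and PSMA2 had 0.08. PSMA3 was the nearest to a call, at adjusted p = 0.062 in the authors' deposited table. PSMA8, which replaces PSMA7 in the testis form of the proteasome, was listed in the authors' deposited table at a mean of 0.166, with no adjusted p. Its level was 0.169 normalized counts in scramble and 0.163 in shSTAT3, against a drop of PSMA7 from 2303 to 917.

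PSMA7 occupies bases 62136735 to 62143440 of chromosome 20, minus strand (GRCh38, GENCODE 29). Tested genes within 300 kb of it moved in both directions. LSM14B, an RNA-binding protein gene 1.36 kb away, showed a log2 fold change of −0.27, and SS18L1, 0.354 kb away on the other side, had 0.35, both called in the authors' deposited table. ADRM1, the ubiquitin receptor gene of the 19S cap, lies in the same window and was not called, at −0.15 in the authors' deposited table. LAMA5, a laminin chain gene, was called lower at −0.97, and RPS21, a ribosomal protein gene, higher at 0.29 in the authors' deposited table. Of the 9 neighbours, 3 were called higher and 3 lower, where 21.3% of all tested genes were called higher and 23.2% lower.

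The standard beta subunits form the inner rings, and all 7 tested genes had positive fold changes, 4 of them called. Of all 12061 tested genes, 6070 had positive fold changes and 21.3% were called higher. All 7 beta genes had means above 500, and of the 5344 tested genes with a mean of at least 500, 1472 were called higher. PSMB5, whose product carries the chymotrypsin-like site, showed a log2 fold change of 0.37 (95% interval 0.19 to 0.54, adjusted p = 0.000266) in the authors' deposited table, from 940.4 normalized counts in scramble to 1212 in shSTAT3. PSMB6, of the caspase-like site, rose by 0.30 (95% interval 0.13 to 0.47, adjusted p = 0.00158) in the authors' deposited table, from 1095 to 1352. PSMB7, of the trypsin-like site, rose by 0.28 (95% interval 0.14 to 0.43, adjusted p = 0.000669) in the authors' deposited table, from 1537 to 1872. All 3 catalytic genes were thus called higher, at 122% to 129% of scramble. Among the non-catalytic beta genes, PSMB4 rose by 0.21 (adjusted p = 0.00608), and PSMB2, PSMB3 and PSMB1 were not called at 0.16, 0.12 and 0.05 in the authors' deposited table. PSMB2 lay close to the threshold at adjusted p = 0.0562 in the authors' deposited table. The median log2 fold change was 0.21 for these 7 genes and −0.13 for the 7 tested alpha genes, or −0.13 for the 6 alpha genes without PSMA7.

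The immunoproteasome genes were all well expressed in REH, and none of the 3 was called, where 44.5% of all tested genes were. PSMB8, the exchange partner of PSMB5, showed a log2 fold change of −0.16 (95% interval −0.31 to −0.02, adjusted p = 0.055) in the authors' deposited table, from 2066 normalized counts in scramble to 1845 in shSTAT3. PSMB9, the partner of PSMB6, had 0.15 (95% interval −0.02 to 0.31, adjusted p = 0.141) in the authors' deposited table, from 1065 to 1179. PSMB10, the partner of PSMB7, had 0.07 (95% interval −0.10 to 0.25, adjusted p = 0.533) in the authors' deposited table, from 1050.5 to 1105. Only PSMB8 came near a call, and it was called lower when p-values were adjusted over genes with a mean of at least 100 or when fold changes were centred on genes of like mean. PSMB11, the beta subunit of thymic epithelium, is listed at 0.

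Differences of log2 fold change were formed for 7 pairs of related genes. Set against its partner, each immunoproteasome gene had the lower fold change. PSMB8 minus PSMB5 was −0.53 on the log2 scale (95% interval −0.76 to −0.30), so that the level of PSMB8 per kb of transcript went from 2.53 times that of PSMB5 in scramble to 1.75 times in shSTAT3. PSMB9 minus PSMB6 was −0.16 (−0.39 to 0.08), and PSMB10 minus PSMB7 was −0.21 (−0.44 to 0.02). The difference lay beyond its error for the chymotrypsin-like pair alone, and whether the 3 differences differ from each other was not tested. The intervals treat the errors of both genes as independent, although both were measured in the same libraries.

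**Figure D2:**
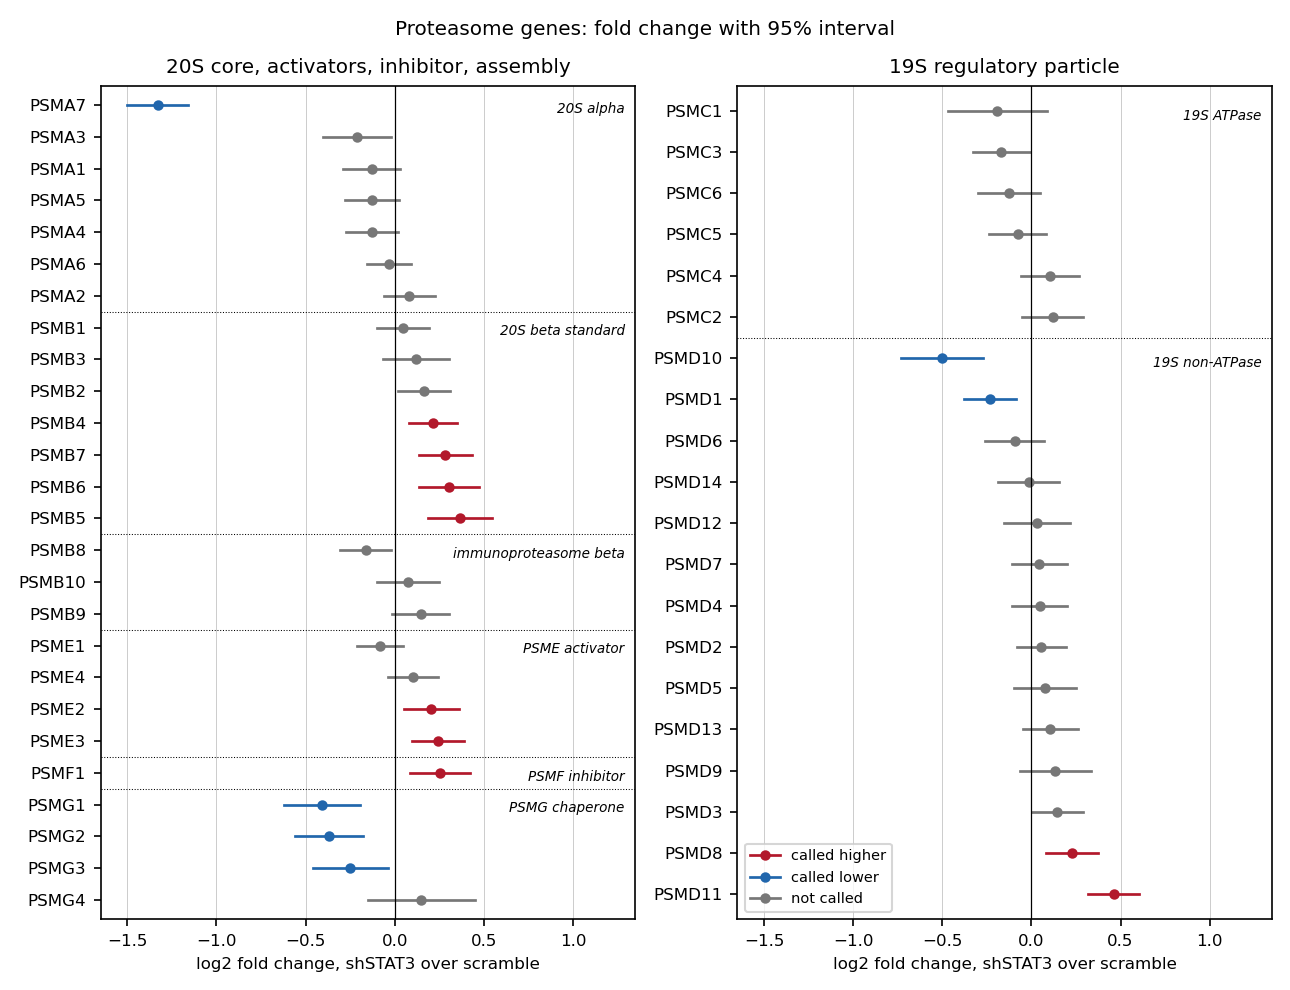
Fold change (log2, shSTAT3 over scramble) for the 46 tested subunit and assembly genes (points) with 95% intervals (bars), by class, coloured by call at an adjusted p under 0.05. The bar of PSMA7 lies apart from the bars of the other 45 genes, the standard beta genes all lie right of 0, and 3 of 4 PSMG genes lie left of it.

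PSMB8 and PSMB9 are neighbours in the HLA class II region. On chromosome 6, PSMB8 spans 32840717 to 32844703 (minus strand) and PSMB9 spans 32844136 to 32859585 (plus strand; GRCh38, GENCODE 29), where PSMB9 overlaps TAP1, a chain of the peptide transporter. TAP1 rose by 0.54 (adjusted p = 3.3e-12) in the authors' deposited table. Of the 8 reported genes of class I peptide supply and its regulators, 5 rose and none fell, where 21.3% of all tested genes rose and 23.2% fell, with a median of 0.21. TAP2, the other transporter chain, TAPBP, which bridges it to class I, B2M, the light chain, and NLRC5, the class I transactivator, rose by 0.24, 0.32, 0.17 and 0.30 in the authors' deposited table. IRF1, which induces immunoproteasome genes after interferon, was not called, at 0.10 in the authors' deposited table. The gene models of PSMB8, PSMB9, TAP1 and the antisense RNA PSMB8-AS1 overlap. The TruSeq RNA v2 kit named in the labels does not mark strand, and how shared reads were counted is not given. Reads from shared stretches may thus be split among these genes or lost.

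The activators open the gate of the core. Of their 4 genes 2 were called, both higher, where 21.3% of all tested genes were called higher. PSME1 and PSME2 encode the chains of the interferon-inducible PA28 ring, PSME3 its nuclear relative PA28-gamma, and PSME4 the activator PA200. PSME2 rose by 0.21 (95% interval 0.05 to 0.36, adjusted p = 0.0237) in the authors' deposited table, from 2268 to 2614 normalized counts. PSME1 was not called, at −0.08 (95% interval −0.21 to 0.05, adjusted p = 0.308) in the authors' deposited table, from 3637 to 3433. These ring partners, 4.39 kb apart on chromosome 14, differed: PSME1 minus PSME2 was −0.29 (95% interval −0.49 to −0.09). PSME3 rose by 0.24 (95% interval 0.09 to 0.39, adjusted p = 0.00428) in the authors' deposited table, from 2361 to 2794, and PSME1 minus PSME3 was −0.33 (−0.52 to −0.13). The gene model of PSME3 overlaps BECN1, an autophagy gene that was not called at −0.06 in the authors' deposited table, over 8966 bases on the opposite strand. PSME4 was not called, at 0.10 (95% interval −0.04 to 0.24, adjusted p = 0.253) in the authors' deposited table. PSMF1, which encodes the inhibitor PI31, rose by 0.25 (95% interval 0.08 to 0.42, adjusted p = 0.0102) in the authors' deposited table, from 794 to 947.

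Of the 4 chaperone genes for assembly of the core, 3 fell, where 23.2% of all tested genes fell. PSMG1 and PSMG2 encode PAC1 and PAC2, which pair to build the alpha ring, and PSMG3 and PSMG4 encode the second pair, PAC3 and PAC4. PSMG1 showed a log2 fold change of −0.41 (95% interval −0.62 to −0.20, adjusted p = 0.000651) in the authors' deposited table, from 619 normalized counts in scramble to 467 in shSTAT3. PSMG2 had −0.37 (95% interval −0.56 to −0.18, adjusted p = 0.000614) in the authors' deposited table, from 744 to 575. PSMG1 minus PSMG2 was −0.04 (95% interval −0.32 to 0.25), so a difference between these partners was not detected. PSMG3 fell by 0.25 (95% interval −0.46 to −0.04, adjusted p = 0.0454) in the authors' deposited table, from 675 to 568, a call lost when p-values were adjusted over every gene with a p. PSMG4, with the lowest mean of the 46 genes (195), was not called at 0.15 (95% interval −0.15 to 0.45, adjusted p = 0.450) in the authors' deposited table. PSMG3 minus PSMG4 was −0.40 (95% interval −0.77 to −0.03). The gene model of PSMG2 overlaps CEP76 over 40945 bases and that of PSMG4 overlaps SLC22A23 over 34412 bases on the opposite strand. POMP, the chaperone of beta ring assembly, lies outside the symbol rule and stood at 100% of scramble (95% interval of log2 −0.19 to 0.20).

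None of the 6 ATPase genes of the 19S base was called, with log2 fold changes from −0.19 (PSMC1) to 0.12 (PSMC2) in the authors' deposited table. PSMC3 had the smallest adjusted p among them, 0.0828, at −0.17 in the authors' deposited table. The base also holds the scaffolds PSMD1 and PSMD2, which take up ubiquitin receptors. PSMD1 had −0.23 (95% interval −0.38 to −0.09, adjusted p = 0.00571) in the authors' deposited table, from 1803 to 1536 normalized counts, while PSMD2 was not called at 0.06. Of the 8 base genes 1 fell and none rose, against 23.2% and 21.3% of all tested genes.

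The lid carries the deubiquitinase PSMD14, and 2 of its 8 genes within the symbol rule rose, a share near the 21.3% of all tested genes. PSMD11, a structural lid subunit, had the largest rise of all 46 tested subunit and assembly genes, at 0.46 (95% interval 0.32 to 0.60, adjusted p = 2.92e-09) in the authors' deposited table, from 1635 to 2250.3 normalized counts. PSMD8, another lid scaffold, rose by 0.23 (95% interval 0.08 to 0.37, adjusted p = 0.00666) in the authors' deposited table, from 1711 to 2004. The other lid genes of the rule, PSMD3, PSMD6, PSMD7, PSMD12, PSMD13 and PSMD14, were not called, from −0.09 (PSMD6) to 0.15 (PSMD3) in the authors' deposited table. SEM1, a lid gene outside the rule, was not called at 0.06 in the authors' deposited table. PSMD4, the ubiquitin receptor RPN10, was not called at 0.05.

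The chaperones of the 19S base did not move together. PSMD10, also known as gankyrin, had −0.50 (95% interval −0.73 to −0.27, adjusted p = 9.12e-05) in the authors' deposited table, from 528 normalized counts in scramble to 372 in shSTAT3, and after PSMA7 it was the lowest of the 46 genes. PSMD9 and PSMD5, which bind other ATPases of the base, were not called, at 0.13 and 0.08 in the authors' deposited table. PAAF1, a further base chaperone outside the symbol rule, was not called at −0.27 (adjusted p = 0.137) in the authors' deposited table. GENCODE 29 names 3 pseudogenes of PSMD10, so its count depends on the treatment of shared reads.

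Levels between genes were compared per kb of the principal transcript. For the 46 genes they ranged from 52.1 normalized counts per kb for PSMC1 to 7410 for PSMA6. Medians were 1224 for alpha genes, 1436 for standard beta genes, 1435 for immunoproteasome beta genes, 604 for ATPases, 644 for PSMD genes, 2161 for activators and 322 for PSMG chaperones. By median, the activators and the core subunits had the highest transcript levels, the 19S genes lower ones and the core chaperones the lowest of these classes; the single inhibitor gene PSMF1 stood at 203. In shSTAT3, PSMA7 moved from rank 2 to rank 4 in level among the 7 tested alpha genes. PSMC1 and PSMA6, the extremes of the range, have 13 and 4 named pseudogenes in GENCODE 29, and no other member has more than 3, so these levels are uncertain. Lengths rest on the annotation, since the transcripts used in REH were not measured here.

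**Figure D3:**
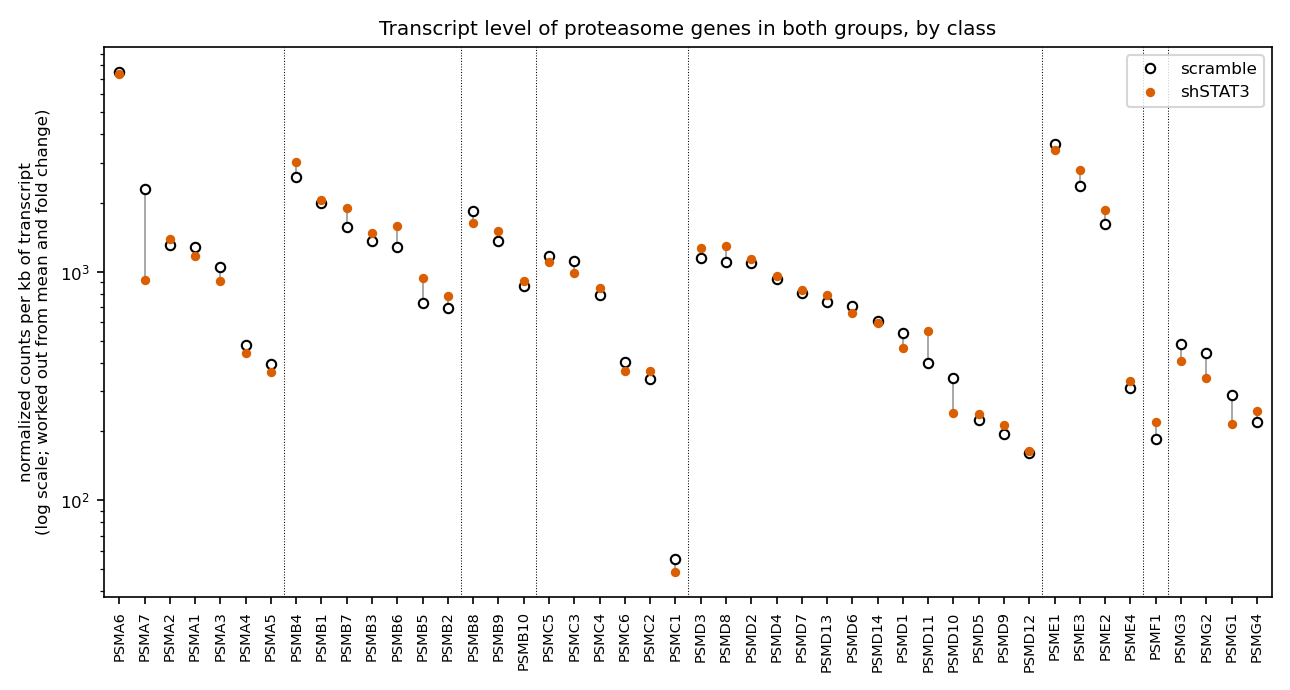
Normalized counts per kb of principal transcript (log axis) of the 46 tested subunit and assembly genes in scramble (open circles) and shSTAT3 (filled circles), by class; levels are worked out from mean and fold change, with no error bars because the table has no values per library. The widest gap is that of PSMA7, and PSMC1 and PSMA6 lie at the ends of the range.

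Genes that bind, regulate or supply the proteasome were called in 9 of 25 cases in the authors' deposited table, 4 higher and 5 lower, where 44.5% of all tested genes were called, with a median log2 fold change of −0.02. NFE2L1, the transcription factor of subunit genes, rose by 0.35 (95% interval 0.21 to 0.49, adjusted p = 8.03e-06) in the authors' deposited table, from 2352 to 2997 normalized counts. Genes for a pair of enzymes that process it fell. NGLY1, which removes its glycans, had −0.64 (95% interval −0.81 to −0.48, adjusted p = 2.59e-13), and DDI2, the protease that cleaves it, had −0.80 (95% interval −1.13 to −0.48, adjusted p = 6.43e-06), both in the authors' deposited table. NGLY1 went from 2726 to 1744 normalized counts and DDI2 from 234 to 134. UCHL5, a deubiquitinase of the 19S cap, had −0.72 (95% interval −0.94 to −0.51, adjusted p = 4.57e-10) in the authors' deposited table, while ADRM1, which docks it, was not called. USP14, the other cap deubiquitinase, was not called at −0.07.

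Among factors that deliver substrates, NPLOC4 and VCP, parts of the p97 unfoldase complex, and the shuttle gene UBQLN4 rose by 0.37, 0.15 and 0.41 in the authors' deposited table. The shuttle gene RAD23B and the ligase gene UBE3C were called lower, at −0.21 and −0.20 in the authors' deposited table. The ubiquitin genes UBB and RPS27A were not called, at −0.10 and 0.05, nor was the activating enzyme gene UBA1, at −0.13, in the authors' deposited table.

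**Figure D4:**
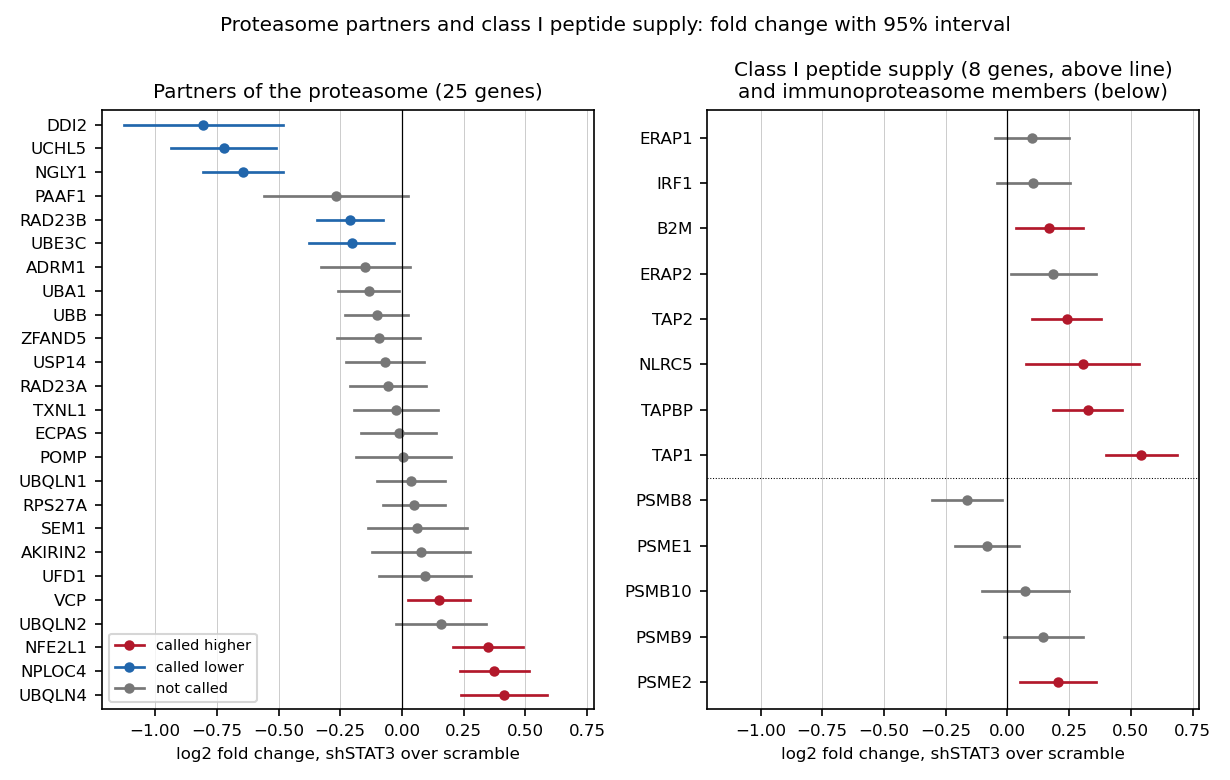
Fold change (log2, shSTAT3 over scramble) with 95% intervals for 25 partner genes of the proteasome (left) and, right, 8 genes of class I peptide supply above 5 immunoproteasome and PA28 members, coloured by call. DDI2, UCHL5 and NGLY1 lie lowest on the left, and TAP1 lies highest on the right at 0.54.

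The antisense RNAs matched by symbol were few and mostly not called. PSMD6-AS2 rose from 26.8 to 63.2 normalized counts, with a log2 fold change of 1.24 (95% interval 0.71 to 1.77, adjusted p = 2.79e-05) in the authors' deposited table. It spans bases 64004022 to 64012148 of chromosome 3, plus strand (GRCh38, GENCODE 29), and overlaps 1600 bases of PSMD6, which had a mean of 979 and was not called, at −0.09 in the authors' deposited table. PSMD5-AS1, PSMA3-AS1, PSMG3-AS1 and PSMB8-AS1 were not called, at 0.24, 0.21, −0.25 and −0.27 in the authors' deposited table. PSMD5-AS1 lay close to the threshold, at adjusted p = 0.0507 in the authors' deposited table. It was called higher when p-values were adjusted over genes with a mean of at least 100. The TruSeq RNA v2 kit named in the labels does not mark strand, so reads from stretches that such an RNA shares with its partner cannot be told apart. The shared stretch is only part of each gene model, as with the 933 bases that PSMG3-AS1 shares with PSMG3. PSMC3IP fell, at −0.40 (95% interval −0.71 to −0.09, adjusted p = 0.0288) in the authors' deposited table, from 231 to 175 normalized counts.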

How the data were processed

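RNA from 6 REH cultures was made into TruSeq RNA v2 libraries, per the labels' protocols. Tools listed in the submitters' processing notes are DESeq2, featureCounts, Picard, Bowtie2, Trimmomatic and bcl2fastq 2.19, with build hg38. Their order, settings, annotation and use of strand were not given in the sources used here. Per the file headers, the deposited values are a mean normalized count (a signal) over all libraries, the log2 fold change between groups, and its p-value, raw and adjusted.

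No model could be refitted without values per library, so calls use the authors' adjusted p from DESeq2 (under 0.05). The implied standard error was obtained by dividing each fold change by the normal quantile matching its p. Group levels solve mean and fold change together for equal groups. The standard error, the p adjustment and the calls were tested on simulated fold changes with normal errors, where the standard error's recovery follows from its formula. The simulation covered neither the group levels nor the shrinkage of fold changes. Replicates came from independent experiments. The members, gene lists, promoters shown and tests were chosen with earlier results of these data known. Named in full were the catalytic, immunoproteasome, PSME, PSMF and PSMG genes and the called members of other classes. Positions, pseudogene names and principal (APPRIS) transcript lengths came from GENCODE 29, where 53 of 54 members matched. Promoter windows were those nearest the start of the principal transcript. The tools were matplotlib 3.10.9, scipy 1.17.1, pandas 2.3.3 and numpy 2.4.6 under Python 3.11.15. Some genes of the partner and peptide supply lists are not reported here and were left out of their counts.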

Additional observations from a re-analysis of the deposited data

How the results depend on the processing

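No paired analysis was possible because the table holds no values per library, and for the same reason no replicate could be left out. With at least a 1.5-fold change required, 1 member stayed lower (PSMA7) and 1 higher (PSMD6-AS2), in place of 7 and 10. At an adjusted p under 0.1, calls rose to 2 among alpha genes (PSMA3 added), 1 among immunoproteasome genes (PSMB8) and 1 among ATPases (PSMC3). PSMB2, PSMD3 and PSMD5-AS1 were added as higher. At an adjusted p under 0.01, calls fell to 1 among activators (PSME2 lost), 0 for PSMF1 and 2 among PSMG chaperones (PSMG3 lost). PSMC3IP was lost as well. With p-values adjusted over genes with a mean of at least 100, the immunoproteasome class had 1 call (PSMB8). PSMD5-AS1 was then called higher, and PSMD6-AS2, below that mean, dropped out. The numbers of members called higher and lower stayed within 1.5 times under the other alternatives. Centring fold changes on genes of like mean moved members by at most 0.039. It left 48 of 52 members on their side of the threshold, brought in PSMA3, PSMC3 and PSMB8 as lower and lost PSMC3IP. All 7 differences between paired subunits kept their direction and their side of 0. With the same standard errors and such small shifts they could hardly have moved, so this is no check on them. The background share at a mean of at least 500 was added after seeing the data. Precision is limited by the implied standard error, a median of 0.08 for the 46 genes and 0.27 for PSMD6-AS2.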
